A study of Bos taurus with 4 samples.

Results

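Embryonic genome activation is the point at which a cleaving embryo stops relying on transcripts stored by the oocyte and starts to transcribe its own genome. In mammals a small set of genes is transcribed at high level at this time and falls silent soon after. The set named here is ZSCAN4, a zinc finger and SCAN domain gene known from mouse early cleavage embryos and mouse embryonic stem cells, KDM4E, a histone H3 lysine 9 demethylase known from bovine embryos, KLF17, a Krüppel-like factor known from human embryos and naive human pluripotent cells, ZSCAN5B, another zinc finger and SCAN domain gene, and DUXA and ARGFX, PRD-like homeobox genes known from human cleavage embryos. In cattle, activation precedes the morula, so the stage sampled here lies after it.

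The members were all probes of the EmbryoGENE bovine array whose gene symbol in the platform annotation was one of these 6 names. Of the 6 genes, 3 had such a probe, with 1 probe each, out of 43794 transcript probes on the array, of which 21790 carried a symbol. ZSCAN4 was read by probe EMBV3_37261, KLF17 by EMBV3_25578 and ARGFX by EMBV3_01177. KDM4E, ZSCAN5B and DUXA were matched to no probe through the annotation used and were not analysed here. No second probe was available for any member, so agreement between probes of 1 gene could not be checked.

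The high glucose group (HG) was morulae cultured in synthetic oviductal fluid with 5 mM glucose from day 0 to day 3. The control group (CTL) had 0.2 mM glucose over the same days. All embryos then went to control medium until day 5 and were collected 120 h after fertilization. They were produced in vitro from slaughterhouse ovaries. Each of 4 arrays, the areas 1 to 4 of 1 slide, carried an HG pool and a CTL pool of 10 morulae each, with HG in Cy5 on areas 1 and 2 and in Cy3 on areas 3 and 4. Separate fertilizations are not stated for the pools, and the p-values therefore cover the spread among these pools only. In pooled embryos, fewer transcribing cells and less RNA per cell cannot be told apart.

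The comparison asks whether glucose from day 0 to day 3 was followed by a different level of these transcripts in the morula. Whether that exposure covered genome activation was not tested. ZSCAN4 had a mean signal 1.64-fold higher in HG, KLF17 1.35-fold and ARGFX 1.25-fold, each as the mean of 4 areas. ZSCAN4 was higher in HG on 4 of 4 areas, and KLF17 and ARGFX on 3 of 4. None of the 3 passed the threshold of 0.05 in limma after adjustment over all tested probes, and no other probe on the array did (0 of 15740, or 0%, while 501 were higher and 568 lower in HG at an unadjusted p under 0.05). For KLF17 and ARGFX the SD over areas was larger than the mean difference. ZSCAN4 and KLF17 met the background criterion only through the HG pools, and their CTL reading on area 2 was not well above background.

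Signal is given first, as the mean intensity of a spot's pixels in arbitrary scanner units, and is set against 153 negative control spots, called (-)3xSLv1, of the same area and channel. A probe was called above background if log2 of this intensity was over their mean plus 2 SD. Probes differ in binding strength, so levels of different genes are not set against each other.

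ZSCAN4 intensity was 375 in the HG pool of area 1, 363 in that of area 2, 355 in that of area 3 and 401 in that of area 4. In the CTL pools of areas 1 to 4 it was 325, 224, 209 and 201. The raw channels differ in brightness, so these values are read against their own negative spots. Relative to the negative spots, the HG pools lay at 2.97, 2.67, 1.54 and 2.40 times their mean on areas 1 to 4, against 2.04, 1.28, 1.70 and 1.65 times in the CTL pools. On areas 1, 2 and 4 the HG pool stood further above its negative spots than the CTL pool did, and on area 3 it did not. All 4 HG pools were above background, although that of area 3 passed it narrowly, at 2.33 SD above the mean of the negative spots. Of the CTL pools 3 were above it, and that of area 2, at 1.28 SD, was not well above background.

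KLF17 lay close to the negative spots in every pool. Its intensity was 250.1, 257, 348 and 299.7 in the HG pools of areas 1 to 4, against 263, 185, 219.9 and 207 in the CTL pools. These were 1.98, 1.89, 1.51 and 1.79 times the mean of the negative spots in HG, against 1.65, 1.06, 1.79 and 1.70 times in CTL. All 4 HG pools passed the background limit, that of area 3 narrowly at 2.22 SD, and 3 of the 4 CTL pools did. The CTL pool of area 2, at 0.29 SD, was again the exception.

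ARGFX stood clear of background in all 8 pools. Its intensity was 796, 1106, 1474 and 1599.9 in the HG pools of areas 1 to 4, against 1300.4, 563, 1158 and 1204 in the CTL pools. Those values were 6.29, 8.15, 6.41 and 9.57 times the mean of the negative spots in HG, against 8.16, 3.22, 9.41 and 9.90 times in CTL. The CTL pool of area 2 was the lowest of the 8 by this measure.

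**Figure D1:**
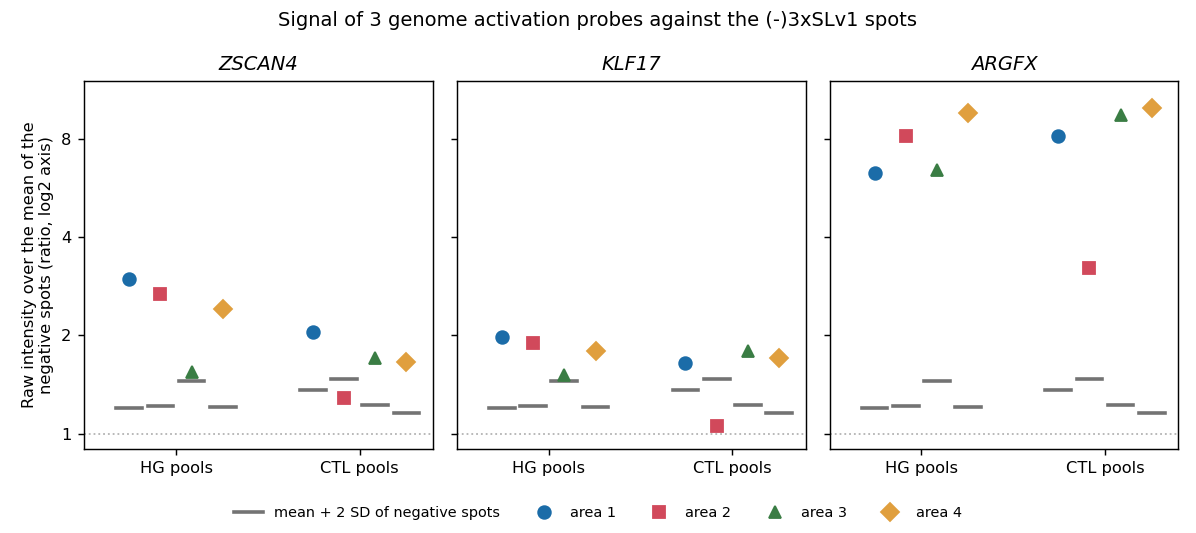
Raw intensity of the 3 probes divided by the mean of the negative control spots of the same area and channel (log2 axis), for the 4 HG pools (left) and the 4 CTL pools (right) of each panel; colours and shapes mark the area. Grey bars mark the background limit of each pool, and the CTL pool of area 2 falls under it for ZSCAN4 and KLF17 but not for ARGFX.

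After background correction, loess normalization within each area and quantile normalization of the average signal between areas, levels can be set side by side across pools on a log2 scale. ZSCAN4 had log2 signals of 8.58, 8.59, 7.63 and 8.28 in the HG pools of areas 1 to 4, against 7.79, 7.32, 7.60 and 7.52 in the CTL pools. The means were 8.27 ± 0.45 in HG and 7.56 ± 0.20 in CTL (SD, n = 4 each). The HG pool of area 3 was the lowest of its group and lay between the highest and lowest CTL pools, so that the groups overlapped, while the other 3 HG pools lay above every CTL pool.

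KLF17 log2 signals were 7.91, 7.90, 7.60 and 7.74 in the HG pools of areas 1 to 4, against 7.39, 6.72, 7.72 and 7.57 in the CTL pools. The HG pools averaged 7.79 ± 0.15 and the CTL pools 7.35 ± 0.44 (SD, n = 4 each). The groups overlapped, and the wider spread lay in CTL, where the area 2 value is a background reading.

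ARGFX log2 signals were 9.64, 10.35, 10.30 and 10.45 in the HG pools of areas 1 to 4, against 10.04, 8.97, 10.19 and 10.24 in the CTL pools. The HG pools averaged 10.19 ± 0.37 and the CTL pools 9.86 ± 0.60 (SD, n = 4 each). The groups overlapped. The lowest value of either group was the CTL pool of area 2, and the lowest HG value was that of area 1.

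ARGFX, which was above background in every pool, had its lowest level of the 8 pools in the CTL pool of area 2, as 9.45% of the tested probes did, and its highest ratio on area 2, as 17.8% did. This comparison was made after the values were seen. For ZSCAN4 and KLF17 the CTL reading of area 2 was not well above background, so their log2 signals in that pool, and their ratios on area 2, rest on a background reading and are not ranked.

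The log2 ratio of HG over CTL was formed within each area. ZSCAN4 had ratios of 0.78, 1.27, 0.03 and 0.77 on areas 1 to 4, with a mean of 0.71 ± 0.51 (SD, n = 4). Areas 1, 2 and 4 gave clearly positive ratios and area 3 lay at about 0. By limma's moderated test against 0 the unadjusted p was 0.0262 and the adjusted p 0.718 over all 15740 probes. An exact two-sided sign-flip permutation test gave p = 0.125, the smallest that 4 areas allow. The ordinary 95% interval of the mean, from the 4 ratios, ran from -0.11 to 1.53. ZSCAN4 was the 1 member past the unadjusted threshold and higher in HG (3.18% of tested probes were), and the 1 member higher in HG on all 4 areas (7.51% of tested probes were). It had entered the test through its HG pools alone, 4 of which were above background against 3 CTL pools, so nothing is read from these shares.

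KLF17 had ratios of 0.51, 1.18, -0.12 and 0.17 on areas 1 to 4, with a mean of 0.44 ± 0.56 (SD, n = 4). The mean was smaller than the SD over areas. The unadjusted p by limma was 0.141 and the adjusted p 0.806. The exact sign-flip permutation test gave p = 0.25, and the interval ran from -0.46 to 1.33.

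ARGFX had ratios of -0.40, 1.38, 0.12 and 0.21 on areas 1 to 4, with a mean of 0.33 ± 0.75 (SD, n = 4). The value of area 2 stood apart from the other 3. The unadjusted p by limma was 0.331 and the adjusted p 0.908. The exact sign-flip permutation test gave p = 0.625, and the interval ran from -0.87 to 1.53. Without area 2 the ARGFX mean was -0.025, so its direction in HG rested on that area, while ZSCAN4 stayed at 0.53 and KLF17 at 0.19.

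**Figure D2:**
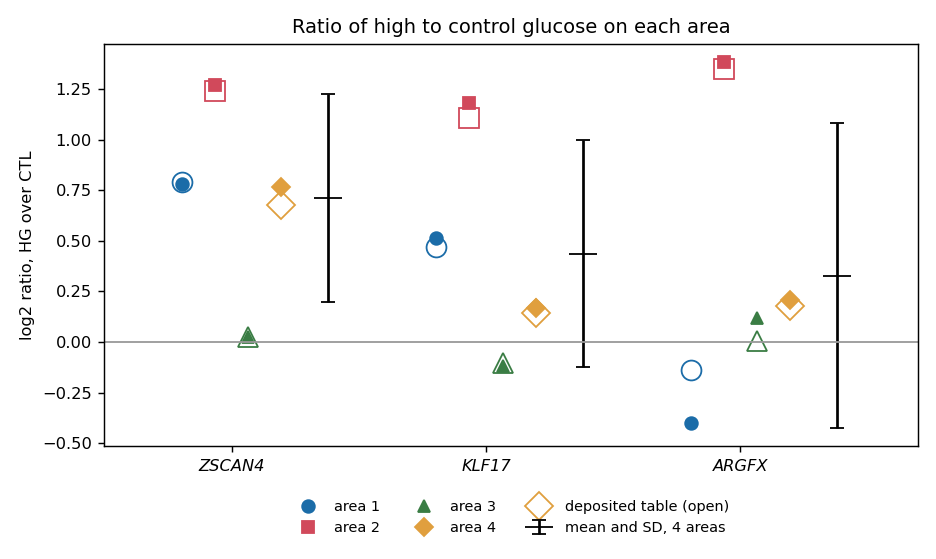
Log2 ratio of HG over CTL of each probe on areas 1 to 4 (filled symbols, by area), with the mean and SD of the 4 areas (black bars) and the authors' deposited values for the same areas (open symbols). On area 2 (red squares) the CTL reading of ZSCAN4 and KLF17 was not well above background. Area 3 lies near 0 for ZSCAN4, at -0.12 for KLF17 and at 0.12 for ARGFX.

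The authors' deposited table gave closely similar ratios once turned to HG over CTL. In the authors' deposited table ZSCAN4 was at 0.79, 1.24, 0.02 and 0.68 on areas 1 to 4, KLF17 at 0.47, 1.11, -0.11 and 0.15, and ARGFX at -0.14, 1.35, 0.00 and 0.18. The largest gap to the ratios above was that of ARGFX on area 1. ARGFX, which lay below 0 on area 1 in both, was at -0.40 there by the processing used here.

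ARGFX passed the background criterion in both groups, and its mean ratio lay above that of 87.8% of the tested probes. On single areas its position moved, to above 30.0, 98.7, 56.6 and 65.7% of the tested probes on areas 1 to 4. Among 1169 tested probes of like signal (within 0.25 on the log2 scale) it lay above 84.3%. ZSCAN4 and KLF17 passed the criterion only through HG, the group where their means were higher, so their position among the tested probes is favoured by that criterion and is not given. Of all tested probes 47.6% had a mean ratio above 0, and their median ratio was -0.02.

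**Figure D3:**
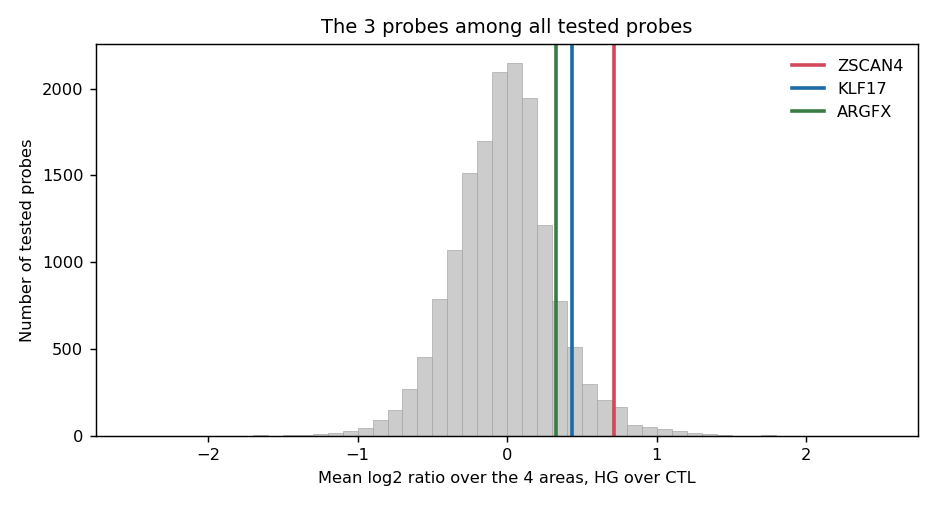
Number of tested probes by mean log2 ratio of HG over CTL (grey bars, 15740 probes, bins of 0.1, values beyond 2.5 not drawn), with the 3 members as coloured lines. ZSCAN4 lies at 0.71, KLF17 at 0.44 and ARGFX at 0.33, all inside the range of the tested probes; ZSCAN4 and KLF17 were tested through their HG pools alone.

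The members were also compared with each other, as the difference of their ratios within an area, in 3 pairs. ZSCAN4 exceeded KLF17 by 0.28 ± 0.23 and on all 4 areas (exact sign-flip permutation test, p = 0.125, adjusted over the pairs 0.375). For both probes the CTL reading of the same area was not well above background, and that area counts among the 4. Both were also tested through their HG pools alone. ZSCAN4 minus ARGFX averaged 0.38 ± 0.62 (exact permutation p = 0.5, adjusted 0.75), and KLF17 minus ARGFX averaged 0.11 ± 0.54 (exact permutation p = 1, adjusted 1). With 4 areas this test cannot go below 0.125, so it could call none of these differences. The mean difference exceeded its SD over areas for ZSCAN4 minus KLF17 and not for the other pairs. Each pair includes ZSCAN4 or KLF17 and so rests in part on a background reading in CTL. The pairs are therefore not ranked.

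The dyes divide the areas into a pair with HG in Cy5 and a pair with HG in Cy3. ZSCAN4 averaged 1.03 with HG in Cy5 and 0.40 with HG in Cy3, KLF17 0.85 and 0.02, and ARGFX 0.49 and 0.16. All 3 had the larger mean with HG in Cy5, as did 48.1% of tested probes. The part of the ratio that follows the dye had limma unadjusted p = 0.209 for ZSCAN4, 0.0984 for KLF17 and 0.643 for ARGFX (adjusted p = 0.705, 0.698 and 0.871). The role of the dye in these ratios was not tested further, and it cancels in a mean over the 4 areas if it is equal in all. The negative spots had a mean log2 ratio of 0.13 and 0.12 with HG in Cy5, on areas 1 and 2, and of -0.14 and -0.12 with HG in Cy3, on areas 3 and 4.

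Areas 1 and 3 ran against each other over all tested probes (r = -0.46 of their HG over CTL ratios), while areas 2 and 4 had r = 0.26. The dyes of each area were taken from the labels. ZSCAN4, at 0.78 on area 1 and 0.03 on area 3, and KLF17, at 0.51 and -0.12, had the lower ratio on area 3. ARGFX went the other way, from -0.40 on area 1 to 0.12 on area 3. With the sign of area 1 turned, the means were 0.32 for ZSCAN4, 0.18 for KLF17 and 0.53 for ARGFX. With that of area 3 turned they were 0.70, 0.50 and 0.27. On areas 2 and 4 alone they were 1.02, 0.68 and 0.80, and on areas 1 and 3 alone 0.40, 0.20 and -0.14. Only the ARGFX mean on areas 1 and 3 alone was below 0 among these values.

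Many markers of other cell types changed sign between areas 1 and 3, and some did not. Stromal-type markers, of which 10 of 11 were tested, had median ratios of -2.48, -0.01, 2.60 and -0.99 on areas 1 to 4. Among them were LUM, a matrix proteoglycan gene, with a mean of -0.33 ± 3.70, and VIM, an intermediate filament gene, at -0.36 ± 2.59 (SD, n = 4). SPARC was at -0.48 ± 2.00, with -2.67 on area 1 and 2.02 on area 3. FN1, the fibronectin gene, was at -0.72 ± 0.30 (limma unadjusted p = 0.0103, adjusted 0.718). Cumulus and granulosa markers, 6 of 16 tested, had medians of -1.70, 0.24, 1.69 and -0.20. The steroidogenic aromatase CYP19A1 was at -0.50 ± 0.25 (limma unadjusted p = 0.0404, adjusted 0.718), with 1 HG pool and 4 CTL pools above background, so it was tested through CTL alone and 3 of its HG values are background readings. The 4 brightest of the tested cumulus and granulosa markers were SERPINE2 at -0.19 ± 1.47, STAR at -0.04 ± 2.05, INHBA at 0.30 ± 1.76 and TNFAIP6 at 0.60 ± 0.90. For STAR 1 of 2 tested probes had a mean in the direction given. Of those not tested, AMH and FOXL2 were above background in no pool, and FSHR was in 2 HG and 3 CTL pools. Between areas 1 and 3, FN1 (-0.66 and -0.63), COL1A1 (0.09 and 0.31), CYP19A1 (-0.83 and -0.42) and TNFAIP6 (0.60 and 1.79) kept their sign. The other tested markers of both lists changed sign. COL1A1 and TNFAIP6 had 4 HG pools and 3 CTL pools above background, so they were tested through HG alone, which favours ratios above 0. The part of these markers in the members' ratios was not tested.

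Markers of the morula and early embryo were measured for 6 of 10 genes, and 1 of the 6 had a higher and 5 a lower mean in HG, with a median of -0.62. Their medians by area were 0.01, -0.49, -1.60 and -0.43. POU5F1, a pluripotency factor, was at -0.54 ± 0.37 and KRT8 and KRT18, keratins of the first epithelium, at -1.81 ± 0.76 and -1.39 ± 1.30 (limma unadjusted p = 0.0435, 0.000967 and 0.0257, adjusted p = 0.731, 0.718 and 0.718). Lower values past the unadjusted threshold were found for 4.35% of all genes. NANOG, another pluripotency factor, was at 0.47 ± 0.65. The members' means lay on the other side of 0 from this list's median, which came to 0.11 with the sign of area 3 turned. Of the members, ZSCAN4 and KLF17 were tested through their HG pools alone, which favours means above 0. TFAP2C and KLF5 of this list are also on the list of other genome activation genes.

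Other genes of genome activation had means on both sides of 0. Of 29 genes on that list, 18 had a symbol on the array and 14 were tested, of which 5 had a higher and 9 a lower mean in HG. Their median ratio was -0.07, against -0.04 over all 7377 genes, of which 43.9% were higher. By area the list medians were 0.30, 0.26, -0.63 and -0.03, lowest on area 3. NFYA, a subunit of the CCAAT-binding factor, had 1.00, 0.68, -0.04 and 1.31 on areas 1 to 4 and a mean of 0.74 ± 0.58 (limma unadjusted p = 0.0290, adjusted 0.718). It was the 1 gene of the list past the unadjusted threshold and higher in HG, as 2.47% of all genes were. The 4 named by the brightness of their probes were TFAP2C, a trophectoderm factor, at -0.09 ± 0.91, KLF4, a pluripotency factor, at 0.38 ± 0.91, DPPA3, which protects the maternal genome's methylation in mouse zygotes, at -0.44 ± 0.84, and NR5A2, a nuclear receptor, at -0.02 ± 1.50. The spread of these 4 over areas exceeded each mean. Of the tested probes, 2 of 3 for TFAP2C and 1 of 2 for NR5A2 had a mean in the direction given. DPPA2 and DPPA4, which act upstream of genome activation genes in mouse cells, were on the array but did not meet the background criterion.

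**Figure D4:**
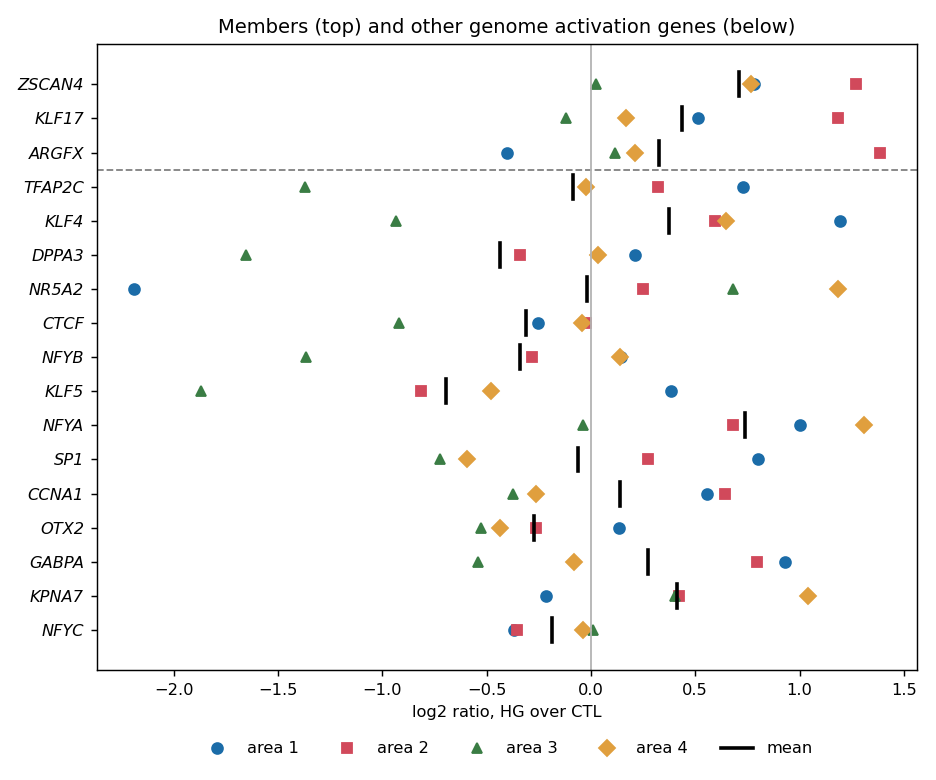
Log2 ratio of HG over CTL on areas 1 to 4 (symbols) and the mean (black bar) for the 3 members (above the dashed line) and 14 other genes of genome activation. Area 3 (green triangles) is the lowest for many of the other genes, and the means fall on both sides of 0.

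Paralogs of the members, among them other KLF, ZSCAN and KDM4 genes, had 12 tested members of 34 with a symbol on the array, with 5 higher and 7 lower means in HG and a median of -0.09. KLF13, a Krüppel-like factor, was at 0.52 ± 0.48 and ZSCAN16, a zinc finger and SCAN domain gene, at 0.51 ± 0.37 (limma unadjusted p = 0.0697 and 0.0512). These 2 were higher in HG on all 4 areas, as 5.8% of all genes were. KLF10 was at 0.21 ± 0.29 and ZSCAN25 at -0.27 ± 1.42. Of the demethylases related to KDM4E, KDM4A was at -0.14 ± 0.61, KDM4B at 0.14 ± 0.37 and KDM4C at -0.23 ± 0.45, named here after their values were seen.

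Genes of embryonic transcription and ribosome biogenesis were tested for 25 of 32. Their means were higher in HG for 12 and lower for 13, with a median of -0.02. NPM1, NOP58, NOP56 and NCL, all nucleolar genes, were at -0.17 ± 0.49, -0.46 ± 0.55, -0.11 ± 0.28 and -0.07 ± 0.41. Maternal transcripts were tested for 9 of 26 with a symbol, with 6 higher and 3 lower means and a median of 0.18. Of all genes 43.9% had a higher mean. The median of the maternal list was -0.02 without area 3 and -0.002 on areas 2 and 4 alone. TUT7, a terminal uridylyltransferase gene, was at 1.05 ± 1.27, and RNF114, a ubiquitin ligase gene, at -0.14 ± 0.28. TLE6, a gene of the subcortical maternal complex, was at 0.18 ± 0.54 (n = 3, area 1 missing), and ZAR1L at 0.37 ± 1.12 (n = 3, area 2 missing). No gene of either list was past the unadjusted threshold, and no gene of any list passed the adjusted one.

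The genes with the most similar level over the 8 pools were taken by Pearson correlation of log2 signal among 7315 genes. The pools share arrays and dyes, and for ZSCAN4 and KLF17 a CTL reading was not well above background, so these are descriptions only. For ZSCAN4 they were TBC1D22B (r = 0.976), KDM5A (0.961) and GCH1 (0.960). Their own mean ratios were 0.43 ± 0.33, 0.79 ± 0.67 and 0.63 ± 0.64. TBC1D22B was higher in HG on 4 of 4 areas, as 5.8% of all genes were, and the others on 3. These genes were picked for following the level of ZSCAN4, which was itself higher in HG on 4 of 4 areas. Nothing is therefore read from their direction or from this share. For KLF17 the genes with the most similar level were STK17A (0.952), SLC12A2 (0.922) and NOS3 (0.916), with mean ratios of 0.46 ± 0.46, 0.93 ± 0.83 and 0.29 ± 0.68. For ARGFX they were TCHP (0.956), SLC5A6 (0.953) and HUWE1 (0.935), with mean ratios of 0.12 ± 0.35, 0.29 ± 0.74 and 0.12 ± 0.57.

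By RefSeq (assembly ARS-UCD2.0), ZSCAN4 lies on chromosome 18, KLF17 on chromosome 3 and ARGFX on chromosome 1. The nearest genes with a tested probe were looked at after the members' values were seen. Directly beside ZSCAN4, ZNF211, a zinc finger gene, was at 0.15 ± 1.26, with 1.67, -0.32, -1.29 and 0.54 on areas 1 to 4. On the other side of ZSCAN4, with 5 genes between, LOC100138449 was at 0.19 ± 0.60. Directly beside KLF17, LOC100297732 was at 0.72 ± 0.45 and higher in HG on 4 of 4 areas, as 5.8% of all genes were (limma unadjusted p = 0.0197). On the other side of KLF17, with 6 genes between, ATP6V0B, a subunit gene of the vacuolar proton pump, was at -0.69 ± 0.45 and lower in HG on 4 of 4 areas, as 8.82% of all genes were (limma unadjusted p = 0.0240). Neither gene named for ARGFX lay directly beside it. RABL3, a small GTPase gene with 6 genes between, was at 0.68 ± 0.74. GOLGB1, a Golgi protein gene with 2 genes between, was at 0.22 ± 0.83.

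Across other processing of the same arrays, ZSCAN4 and KLF17 kept a mean above 0 in each of the 20 alternatives that retained them, from 0.32 to 1.02 for ZSCAN4 and from 0.18 to 0.68 for KLF17. Among these, quantile normalization between areas, the dye term, the separate-channel and unpaired fits and the lack of a filter leave the mean as it is by construction and say nothing of its sign. ARGFX was above 0 in 20 of 22, from -0.14 to 0.80. The unadjusted p of ZSCAN4 was under 0.05 in 14 of its 20 alternatives. It was not with area 1, 2 or 4 left out, with the sign of area 1 turned, on areas 1 and 3 alone, or with the median of the pixels, where ZSCAN4 was higher in HG on 3 of 4 areas. These settings reuse the same 4 areas, and the filters at 3 SD and on both channels left ZSCAN4 out. As reported, ZSCAN4 was tested through its HG pools alone, so nothing is read from this count. No member passed the adjusted threshold in any alternative.

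**Figure D5:**
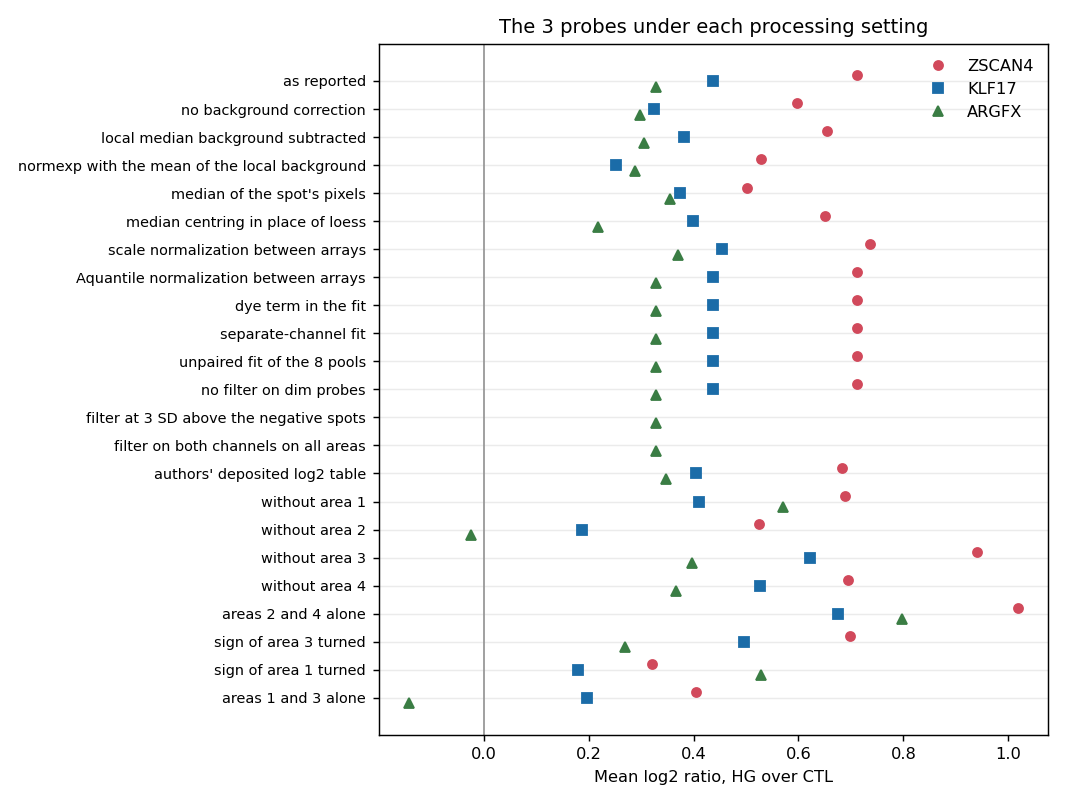
Mean log2 ratio of HG over CTL of the 3 members under each processing setting (rows). ZSCAN4 and KLF17 stay right of 0 wherever they were retained, and ARGFX falls left of it without area 2 and on areas 1 and 3 alone.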

How the data were processed

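The scanner files held raw spot intensities of 4 two-colour arrays, as pixel means and medians for Cy3 (532 nm) and Cy5 (635 nm) plus local background, not normalized, per the file headers. A second table held the authors' deposited log2 ratios, found to run as Cy5 over Cy3 (correlations of 0.986, 0.998, 0.996 and 0.997 with the ratios computed here). Its background correction and normalization are not given in the sources used here, and limma is named, with no version, per the submitters' processing notes. Pools were amplified by T7 transcription and labelled chemically at guanine, per the labels' protocols, so ratios are those of amplified RNA.

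Mean intensities were corrected with normexp (offset 50, median local background) and normalized by loess within each array, giving control spots weight 0 (R 4.3.3, limma 3.58.1). Ignored spots (29, 151, 140 and 92) were set to missing, none of them a member. The local background was taken as the median of its pixels, and its mean was an alternative. Probes above background in HG on all 4 areas or in CTL on all 4 were tested (15740 of 43794). Above background were 36.2 to 55.7% of probes in HG and 35.4 to 59.2% in CTL. Ratios were turned by the labelled dyes, fitted with lmFit and eBayes against 0, and adjusted by Benjamini-Hochberg. Each gene of a list was represented by its tested probe of highest signal. Symbols came from the platform annotation: 14114 of 15229 were current in RefSeq (ARS-UCD2.0) and 982 were updated. The scripts were tested on simulated data.

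Besides the members, the rule named from each list the 4 genes with the highest signal, used only to pick names, and all under an unadjusted p of 0.05, and 3 genes of most similar level per member. The members and lists were chosen with earlier results of these data known. All arrays were on 1 slide, so no batch could be tested. Each array already pairs an HG pool with a CTL pool. The number of arrays limits the precision.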

Additional observations from a re-analysis of the deposited data

Results flagged for a closer look

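Of 16 sets of pool values examined, 1 held a pool that stood far from the rest. The ARGFX log2 signal in the CTL pool of area 2 was 8.97, while the other 3 CTL pools lay between 10.04 and 10.24. Among the HG pools the ARGFX signal of area 1, at 9.64, also lay below the other 3, which ran from 10.30 to 10.45. It was not counted as standing far from them. Chance gives about 1 value counted as standing far from the rest in 20 groups. Without area 2, ARGFX had a mean ratio of -0.025.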

How the results depend on the processing

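In 22 alternatives the count of members past the adjusted threshold stayed at 0, and the median ratio of the tested members lay between 0.19 and 0.80 (0.44 as reported). The count past the unadjusted threshold, 1 as reported, was 0 with the median of the spot's pixels, with the filter at 3 SD, with the filter on both channels, with the sign of area 1 turned and on areas 1 and 3 alone, and 3 on areas 2 and 4 alone, where 12.3% of all tested probes were past it. With 1 area left out it ranged from 0 to 1. The count higher in HG on every area, 1 as reported, was 0 with the median of the spot's pixels and with both filters, 3 on areas 2 and 4 alone (28.4% of all tested probes), and ranged from 1 to 2 with 1 area left out (10.96 to 16.7% of all tested probes). Both filters left out ZSCAN4 and KLF17 by construction. With 1 area left out, ARGFX ranged from -0.025 (without area 2) to 0.57 (without area 1). It was at -0.14 on areas 1 and 3 alone, an alternative added after the data were seen, like the mean local background. With the mean local background ZSCAN4 was at 0.53, KLF17 at 0.25 and ARGFX at 0.29. On areas 2 and 4 alone, 78 of 15646 probes passed the adjusted threshold, and the members did not (ZSCAN4 adjusted p = 0.153 by limma). In a fit without the pairing of pools on an array (no replicate block), the ratios were 0.71, 0.44 and 0.33 with limma unadjusted p = 0.0165, 0.0969 and 0.327, and no call after adjustment changed. The causes of these shifts were not tested.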
